A study of Mus musculus with 3 samples.

Results

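The genes described here are 10 genes of gluconeogenesis and glycolysis, taken by symbol from a table of 21983 genes. They are 4 genes of gluconeogenesis (Pck1, G6pc, Fbp1 and Slc37a4) and 6 genes of glycolysis (Hk1, Hk2, Pfkl, Pfkm, Ldha and Pkm). All 10 were found. Slc37a4 is a transporter and not an enzyme. Their RNA was counted in the intestine of wild-type mouse pups in 3 libraries, 1 per group. One library, PCI34051+NEC, is from pups that underwent experimental necrotizing enterocolitis (NEC), in which the bowel of newborns becomes inflamed and dies, and that were fed PCI34051, an inhibitor selective for the deacetylase HDAC8, at 10 mg/kg per day for 5 days. Pups of the NEC library underwent the same model with PBS in place of the inhibitor. The model combined gavage of 40 µl of 33% Esbilac formula every 4 h for 96 h with hypoxia (99.9% nitrogen for 100 s) and cold (10 min at 4 °C) every 12 h. Pups of the control library were dam-fed, received PBS and had neither hypoxia nor cold, so diet, hypoxia and cold cannot be told apart in comparisons with it. The sources used here do not give the strain, the sex, the age in days, the gut segment, or the number of pups per library.

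Glycolysis breaks glucose down to pyruvate, and lactate dehydrogenase interconverts pyruvate and lactate. Gluconeogenesis runs the other way with its own enzymes at the irreversible steps: phosphoenolpyruvate carboxykinase (Pck1), fructose-1,6-bisphosphatase (Fbp1), and in the endoplasmic reticulum the glucose-6-phosphatase catalytic subunit (G6pc) fed by the glucose-6-phosphate transporter (Slc37a4). Liver and kidney are its main sites, and the small intestine of suckling rats also expresses these genes.

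The libraries held 16497580 (PCI34051+NEC), 10650638 (NEC) and 15076413 (control) counts, and intervals below are 95% intervals that cover counting error only. With 1 library per group there is no replicate check, no test and no p-value, and every value describes these 3 libraries. The NEC library stood apart: mitochondrially encoded genes took 32.4% of its counts, against 3.73% in the PCI34051+NEC and 4.88% in the control library, and the Y-linked gene Eif2s3y had 1134 (PCI34051+NEC), 0 (NEC) and 999 (control) counts. Both comparisons with NEC rest on that library, so sex, which is not labelled, cannot be told apart from the group in them. PCI34051+NEC against control does without that library. All 12 enterocyte markers had counts above 0 in each library. The smooth muscle, liver and erythroid marker lists did too, so presence alone does not identify the tissue. Levels are CPM, counts scaled to a common library total with correction by the trimmed mean of M-values (TMM). Every log2 fold was taken on log2(CPM + 1), which understates differences of low genes. A gene counts as higher or lower from a 2-fold difference on that scale, and as measured at 1 CPM or more in at least 1 of the libraries compared.

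**Figure D1:**
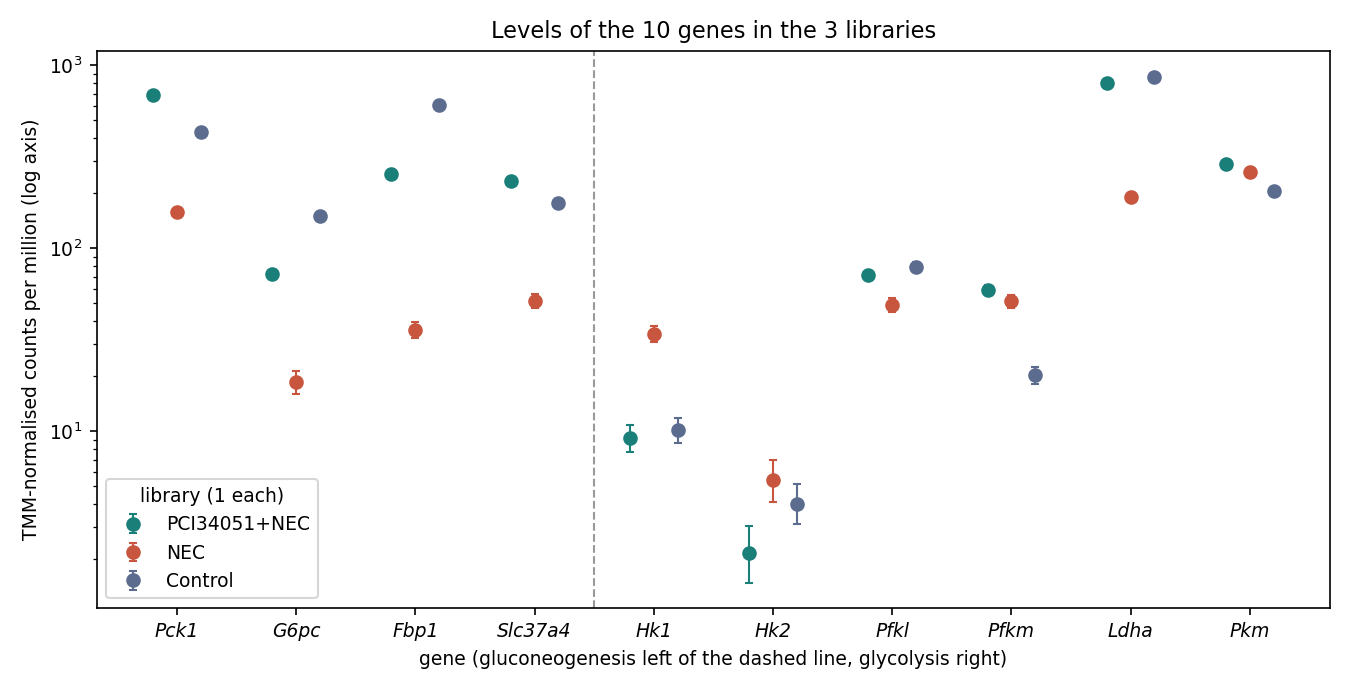
Level of each of the 10 genes in TMM-normalised CPM (vertical log axis) in the PCI34051+NEC, NEC and control libraries; bars are 95% Poisson counting intervals. All 4 gluconeogenesis genes and Ldha were lowest in the NEC library, Hk1 was highest there, and Pfkm was lowest in the control library.

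All 4 gluconeogenesis genes were lowest in the NEC library. Pck1, the cytosolic carboxykinase that makes phosphoenolpyruvate from oxaloacetate (ENSMUSG00000027513, on the plus strand of chromosome 2, 173153048 to 173159273, mm10), was at 684 CPM in the PCI34051+NEC, 158 CPM in the NEC and 433 CPM in the control library (10419, 1727 and 6875 counts). The inhibitor-fed library was the highest of the 3 for this gene. It was 2.74-fold lower in NEC than in control (2.60 to 2.89) and 4.34-fold higher in PCI34051+NEC than in NEC (4.12 to 4.57). In PCI34051+NEC it was 1.58-fold the control level (1.53 to 1.63).

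Fbp1, which removes a phosphate from fructose-1,6-bisphosphate (ENSMUSG00000069805, chromosome 13, 62864753 to 62888282, minus strand), was at 253 CPM in the PCI34051+NEC, 35.8 CPM in the NEC and 604 CPM in the control library. It had the largest difference of the 10 genes in NEC against control, 16.9-fold lower (15.2 to 18.7) or -4.04 on the log2 scale. It was 7.08-fold higher in PCI34051+NEC than in NEC (6.38 to 7.87). The inhibitor-fed library nevertheless held less Fbp1 than the control, 2.38-fold lower (2.30 to 2.47).

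G6pc, whose product releases free glucose from glucose-6-phosphate (ENSMUSG00000078650, on the plus strand of chromosome 11, 101367561 to 101377903), was at 72.1 CPM in the PCI34051+NEC, 18.5 CPM in the NEC and 149.7 CPM in the control library (1097, 203 and 2379 counts). It followed the order of Fbp1, with control highest and NEC lowest. It was 8.07-fold lower in NEC than in control (6.99 to 9.36) and 3.89-fold higher in PCI34051+NEC than in NEC (3.34 to 4.54). In PCI34051+NEC it was 2.08-fold lower than in control, with an interval of 1.93 to 2.23 that holds the 2-fold threshold.

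Slc37a4 (ENSMUSG00000032114, on the plus strand of chromosome 9, 44396852 to 44402968) was at 234 CPM in the PCI34051+NEC, 51.6 CPM in the NEC and 177 CPM in the control library. Like Pck1, it was highest with the inhibitor. It was 3.42-fold lower in NEC than in control (3.13 to 3.75), 4.53-fold higher in PCI34051+NEC than in NEC (4.15 to 4.96), and at 1.32-fold the control level in PCI34051+NEC (1.26 to 1.39). The transporter and the phosphatase it feeds stood on opposite sides of the control level in the inhibitor-fed library.

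The bases upstream of the start sites are shown for the 5 genes that were at least 2-fold lower in NEC than in control. Their shared direction follows from that choice, and 22.9% of all measured genes passed the same cut. All 10 genes had entries in the RefSeq promoter table (GRCm38.p6). The stretches are the bases within 250 before the RefSeq start that lie outside exons annotated in GENCODE M21, read 5′ to 3′ on the gene's strand, and where a gene has several starts the first listed is used. Capitals mark matches, on either strand, to the cAMP response element core CGTCA, the hypoxia response element core ACGTG, the E-box CACGTG, the TATA box core TATAAA, the HNF1 core GTTAAT, the HNF4 core CAAAGTC or the FOXO core GTAAACA. Every CACGTG also holds ACGTG.
Pck1, chr2:173152823-173153047, plus strand: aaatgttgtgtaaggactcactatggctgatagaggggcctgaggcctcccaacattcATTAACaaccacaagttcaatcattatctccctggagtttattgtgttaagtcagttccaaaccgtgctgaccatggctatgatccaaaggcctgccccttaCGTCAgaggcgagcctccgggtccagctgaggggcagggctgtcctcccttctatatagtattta
G6pc, chr11:101367466-101367560, plus strand: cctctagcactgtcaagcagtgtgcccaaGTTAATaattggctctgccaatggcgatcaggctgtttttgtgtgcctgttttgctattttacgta
Fbp1, chr13:62888283-62888532, minus strand: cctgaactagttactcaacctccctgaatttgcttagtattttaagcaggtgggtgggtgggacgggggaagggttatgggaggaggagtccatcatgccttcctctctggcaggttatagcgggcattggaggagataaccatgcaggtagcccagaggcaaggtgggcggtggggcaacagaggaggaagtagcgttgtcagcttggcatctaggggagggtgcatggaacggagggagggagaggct
Slc37a4, chr9:44396696-44396851, plus strand: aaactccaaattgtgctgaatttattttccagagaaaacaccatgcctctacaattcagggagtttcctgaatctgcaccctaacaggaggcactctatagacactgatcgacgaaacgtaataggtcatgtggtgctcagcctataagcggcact
Ldha, chr7:46845554-46845803, plus strand: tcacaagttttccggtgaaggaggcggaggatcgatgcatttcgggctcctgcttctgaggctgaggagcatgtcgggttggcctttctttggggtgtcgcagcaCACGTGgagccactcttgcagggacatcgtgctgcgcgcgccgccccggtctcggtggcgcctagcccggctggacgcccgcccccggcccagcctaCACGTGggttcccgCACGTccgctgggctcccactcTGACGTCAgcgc

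The 5 genes shared no one of these motifs over the full 250 bases. Pck1 held CGTCA 90 bases before the start and GTTAAT, read on the other strand, 192 bases before it. G6pc held GTTAAT 221 bases before the start and a TATA box core, inside an annotated exon and so not printed, 29 bases before it. Ldha held 2 CACGTG E-boxes, 145 and 48 bases before the start, a further ACGTG on the other strand 34 bases before it, and CGTCA on both strands, starting 9 and 12 bases before it. The first listed start of Slc37a4 had 1 match, CGTCA on the other strand 61 bases before it in an annotated exon, and Fbp1 had none. Genes that were not among the 5 held some of these motifs at a listed start too. ACGTG was found in Hk2, Pfkm and Pkm, CGTCA also in Hk2 and CACGTG also in Pfkm, while Hk1 and Pfkl had no match. Of the 32851 promoter windows of this length, 17.8% held CGTCA, 16.6% ACGTG, 6.02% CACGTG, 12.4% TATAAA, 6.43% GTTAAT, 3.84% CAAAGTC and 3.17% GTAAACA. A match is a description of the letters and not a bound site.

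Of the 6 glycolysis genes, 1, Ldha, was at least 2-fold lower in NEC than in control. Ldha, the muscle-type subunit of lactate dehydrogenase (ENSMUSG00000063229, on the plus strand of chromosome 7, 46841475 to 46855627), was at 803 CPM in the PCI34051+NEC, 190 CPM in the NEC and 859 CPM in the control library. It was 4.51-fold lower in NEC than in control (4.31 to 4.73) and 4.22-fold higher in PCI34051+NEC than in NEC (4.03 to 4.42). In PCI34051+NEC it was within 1.07-fold of control, and the sign of that difference turned when the dependence on GC content and length was removed. Of its 1815-base transcript, 55.0% was repeated at 95% identity or more in 5 annotated pseudogenes, so its counts may be understated, and whether to the same extent in each library was not tested.

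Hk1, the hexokinase that binds the outer mitochondrial membrane and serves brain and red cells (ENSMUSG00000037012, chromosome 10, 62268855 to 62379908, minus strand), went the other way. It was at 9.20 CPM in the PCI34051+NEC, 34.1 CPM in the NEC and 10.2 CPM in the control library (140, 373 and 162 counts). It was 3.34-fold higher in NEC than in control (2.77 to 4.04) and 3.70-fold lower in PCI34051+NEC than in NEC (3.04 to 4.53). The interval of PCI34051+NEC over control, 0.714 to 1.14, held 1. An antisense gene, Hk1os, shares 157 bases with its exons, and since the strand setting is not given, its reads may be included.

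Hk2, the insulin-responsive hexokinase of muscle and fat (ENSMUSG00000000628, chromosome 6, 82725025 to 82774454, minus strand), was the lowest of the 10 genes, with 33 (PCI34051+NEC), 59 (NEC) and 64 (control) counts, or 2.17, 5.39 and 4.03 CPM. Its ratio of 1.34 in NEC over control had an interval of 0.923 to 1.94, which holds 1. It was 2.49-fold lower in PCI34051+NEC than in NEC (1.60 to 3.93), and its log2 fold of -1.01 passed 2-fold only narrowly. With a pseudocount of 4 CPM that log2 fold was -0.61.

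The phosphofructokinases catalyse the committed step of glycolysis, and the liver-type and muscle-type subunits differed in pattern. Pfkl, the liver type (ENSMUSG00000020277, chromosome 10, 77986947 to 78010083, minus strand), was at 71.1 CPM in the PCI34051+NEC, 49.1 CPM in the NEC and 79.3 CPM in the control library. These values stayed within 2-fold, with NEC 1.61-fold lower than control (1.46 to 1.79). Removing the dependence on GC content and length gave this log2 fold as -1.18 in place of -0.68. Pfkm, the muscle type (ENSMUSG00000033065, on the plus strand of chromosome 15, 98092589 to 98132451), was at 59.3 CPM in the PCI34051+NEC, 51.4 CPM in the NEC and 20.3 CPM in the control library. Both libraries of the model were above control, by 2.92-fold with the inhibitor (2.57 to 3.33) and 2.54-fold without it (2.21 to 2.92), and they differed from each other by 1.15-fold (1.04 to 1.28). Pfkm was the only one of the 10 genes at least 2-fold higher than control in both. Its exons share 341 bases with Gm26513 on the same strand, and how such reads were counted is not known here.

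Pkm, which encodes the M1 and M2 pyruvate kinases that these gene counts do not separate (ENSMUSG00000032294, chromosome 9, 59656368 to 59679375, plus strand), varied least over the 3 libraries. It was at 288 CPM in the PCI34051+NEC, 262 CPM in the NEC and 205 CPM in the control library. Neither library of the model was 2-fold from control. NEC was 1.28-fold higher than control (1.22 to 1.35) and PCI34051+NEC 1.40-fold higher (1.34 to 1.47), while the log2 fold of PCI34051+NEC over NEC changed sign, 0.13 against -0.02, with scaling by total counts. Of its 2432-base transcript, 65.5% was repeated in 2 other annotated genes, 1 of which, Gm49759, shares 767 exon bases with Pkm on the same strand.

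**Figure D2:**
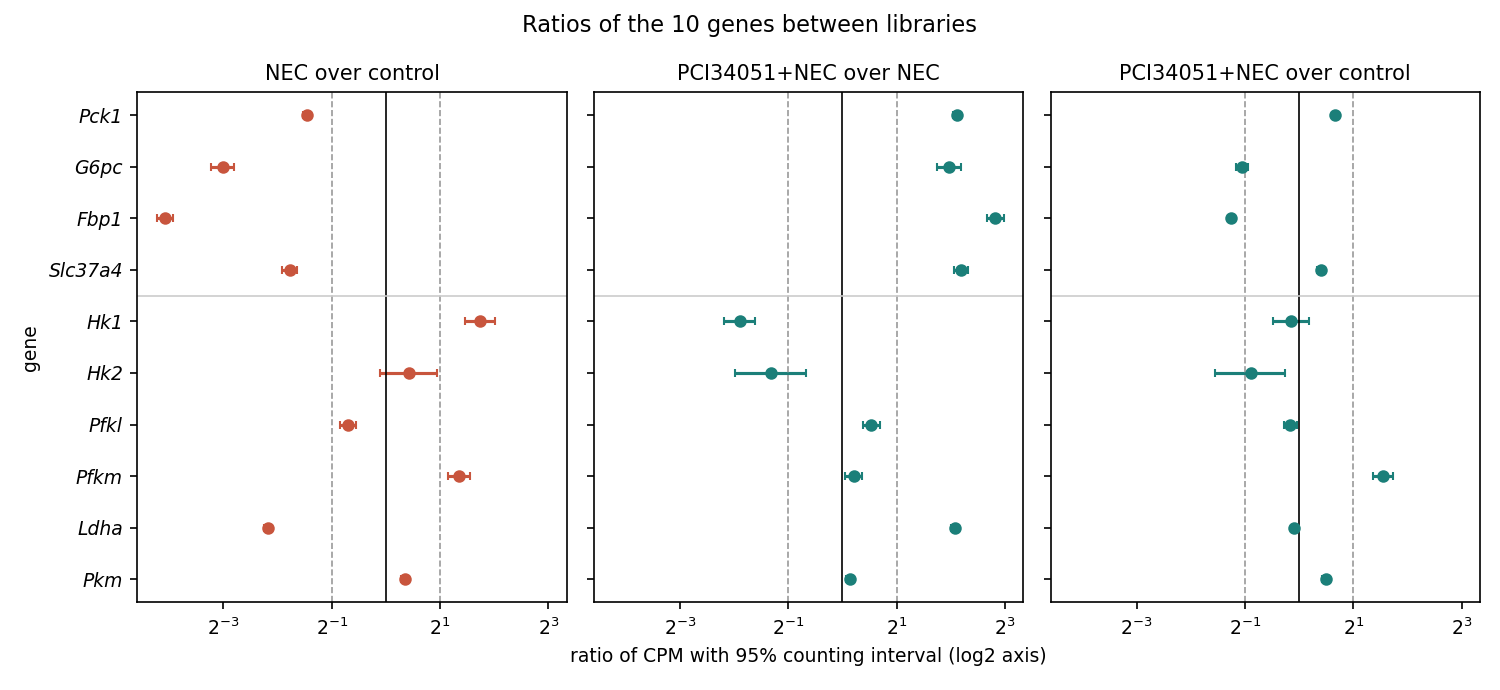
Ratio of CPM (log2 axis) for each of the 10 genes in NEC over control, PCI34051+NEC over NEC and PCI34051+NEC over control; bars are 95% counting intervals and dashed lines mark 2-fold. The 4 gluconeogenesis genes, above the grey line, lay left of the lower dashed line in NEC over control and right of the upper one in PCI34051+NEC over NEC, while the 6 glycolysis genes lay on both sides in each.

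Counted together, 5 of the 10 genes were lower by 2-fold or more in NEC than in control, where 22.9% of 14627 measured genes were, and 2 were higher, where 24.2% were (47.1% either way). Against NEC, PCI34051+NEC had 5 higher (25.0% of 14410 measured genes) and 2 lower (25.6%), with 50.6% of genes called either way. Against control, PCI34051+NEC had 1 higher and 2 lower, with 6.55% of 13652 measured genes called in each direction and 13.1% either way. The 4 gluconeogenesis genes had median log2 folds of -2.35, 2.14 and -0.32 in these comparisons, the 6 glycolysis genes 0.35, 0.17 and -0.12, and all measured genes -0.03, 0.01 and -0.00. Comparisons share libraries, so the first and second are not independent. Across all genes, scaling by total counts moved the median log2 fold by -0.14 in PCI34051+NEC over NEC and by -0.18 in PCI34051+NEC over control. In PCI34051+NEC over control it also gave 633 genes higher and 1256 lower (33.5% of calls higher), where TMM gave 894 in each direction.

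Per kilobase of the longest protein-coding transcript, Ldha was the most abundant of the 10 genes in the PCI34051+NEC (442 CPM per kb) and control (473 CPM per kb) libraries. In the control library Fbp1 came next at 408 CPM per kb, ahead of Pck1 at 163. In the PCI34051+NEC library Pck1 (257) stood above Fbp1 (171). In the NEC library Pkm (108) and Ldha (105) led with overlapping counting intervals, and Pck1 followed at 59.3. Hk2 was last in all 3, between 0.393 and 0.977 CPM per kb. In the NEC library Hk1 and G6pc, at 7.96 and 7.68 CPM per kb, did not differ beyond counting error, and neither did Fbp1 and Slc37a4 at 24.2 and 22.0.

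Hkdc1, the hexokinase domain containing gene, was above Hk1 and Hk2 in every library. It was at 88.4 CPM per kb in the PCI34051+NEC, 43.8 CPM per kb in the NEC and 26.8 CPM per kb in the control library, highest with the inhibitor. Hk1 was at 2.15, 7.96 and 2.38 CPM per kb in PCI34051+NEC, NEC and control. Hk3, the hexokinase of white blood cells, had 10 (PCI34051+NEC), 14 (NEC) and 28 (control) counts. The 7 immune markers summed to 9.0 CPM in the PCI34051+NEC, 16.1 CPM in the NEC and 41.6 CPM in the control library, the same order, and their part in the Hk3 level was not tested.

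Shares within an enzyme family do not depend on the scaling between libraries. Among phosphofructokinases, Pfkp, the platelet type, had the most counts in every library. Pfkm held 19.7% of the family's counts (18.5 to 20.9) in the PCI34051+NEC and 24.2% (22.4 to 25.9) in the NEC library, against 7.31% (6.56 to 8.12) in the control. Pfkl held 23.6%, 23.1% and 28.6% in PCI34051+NEC, NEC and control. Shares per kilobase of transcript were 25.5%, 30.7% and 9.89% for Pfkm and 23.6%, 22.7% and 29.9% for Pfkl in the same order. The order of Pfkm and Pfkl in PCI34051+NEC thus turned with transcript length. The summed family was at 301 CPM in the PCI34051+NEC, 213 CPM in the NEC and 277 CPM in the control library, a smaller spread than that of Pfkm.

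Most pyruvate kinase counts were Pkm in the NEC library and Pklr in the control library. Pkm held 49.7% (48.6 to 50.7) of the counts of Pkm and Pklr, the liver and red cell type, in the PCI34051+NEC library, 81.5% (80.2 to 82.8) in the NEC and 32.8% (31.8 to 33.7) in the control library. In PCI34051+NEC the interval holds an even split of counts, but per kilobase of transcript Pkm held 54.1%, outside that interval. Pklr was at 291.5 CPM in the PCI34051+NEC, 59.5 CPM in the NEC and 421 CPM in the control library. Ldha held 99.2%, 86.6% and 98.9% of the Ldha and Ldhb counts in PCI34051+NEC, NEC and control.

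Shares of the gluconeogenic isozymes also differed between libraries. G6pc held 76.3% (74.0 to 78.5) of the counts of glucose-6-phosphatase catalytic genes in the PCI34051+NEC, 27.2% (24.0 to 30.5) in the NEC and 84.2% (82.8 to 85.5) in the control library, most of the rest being the broadly expressed G6pc3. Fbp1 held 41.3% (40.3 to 42.3) of the counts of Fbp1 and Fbp2, the muscle-type bisphosphatase, in the PCI34051+NEC, 18.1% (16.5 to 19.8) in the NEC and 65.4% (64.6 to 66.2) in the control library. Fbp2 was at 361 CPM in the PCI34051+NEC, 162 CPM in the NEC and 320 CPM in the control library, and per kilobase it exceeded Fbp1 in both libraries of the model but not in the control. Pck1 held 95.2%, 67.0% and 94.5% of the Pck1 and Pck2 counts in PCI34051+NEC, NEC and control. In NEC Pck1 was at its lowest and the mitochondrial Pck2 at its highest. Pck2 was at 34.5, 77.7 and 25.4 CPM in PCI34051+NEC, NEC and control.

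**Figure D3:**
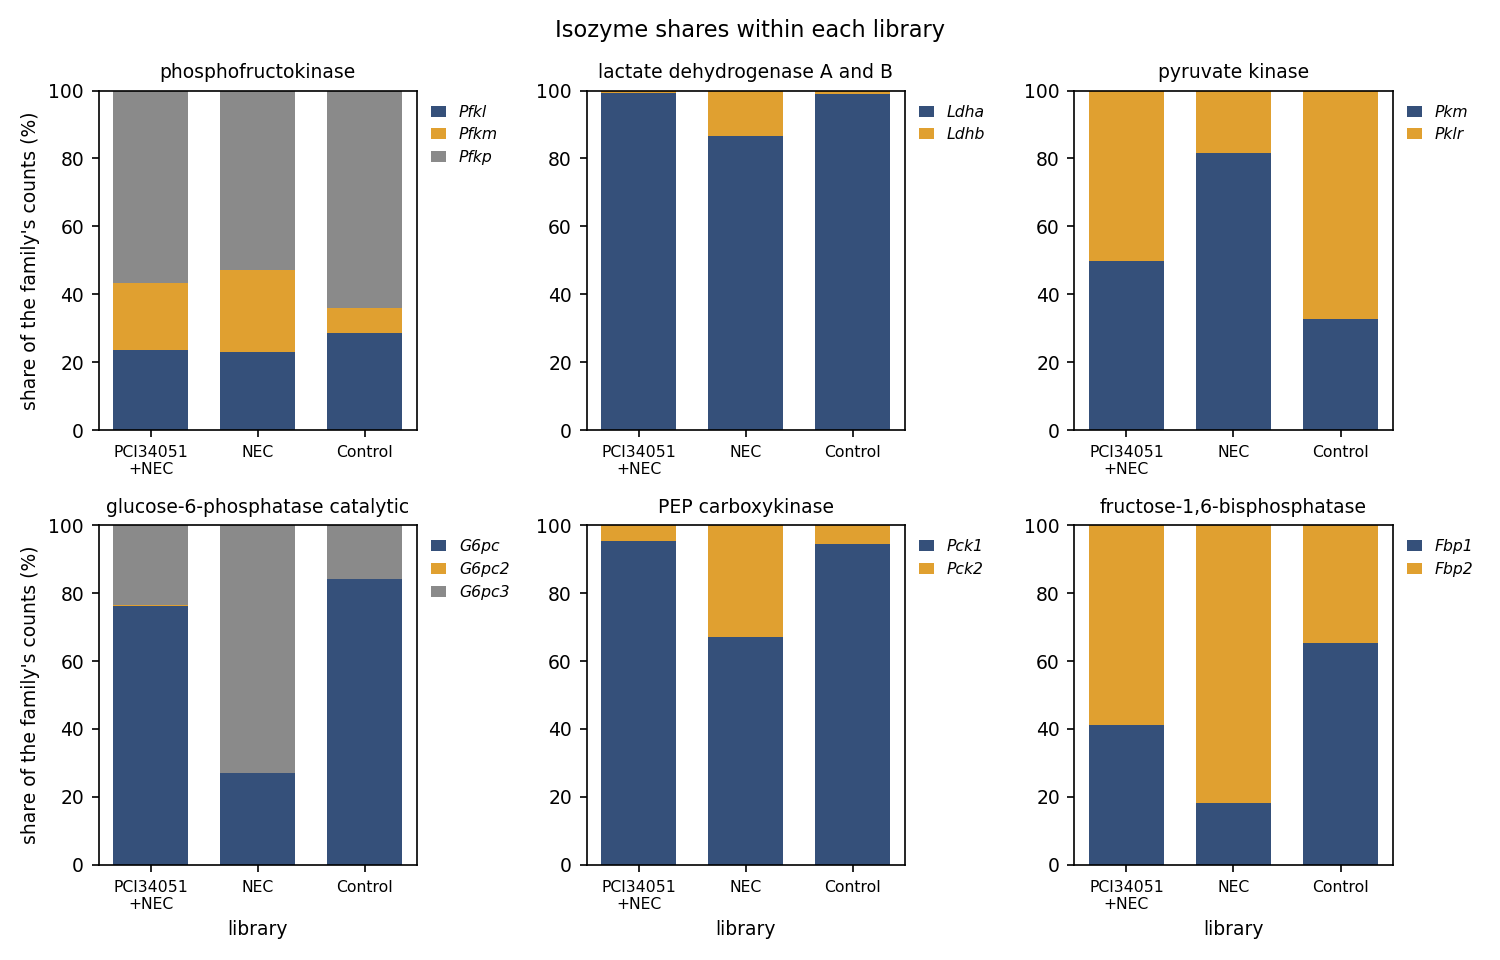
Share of each gene (percent, stacked bars from 0) in the summed counts of its enzyme family within the PCI34051+NEC, NEC and control libraries. The NEC bars held more Ldhb, Pkm, G6pc3 and Pck2 than the bars beside them, whereas for phosphofructokinase both bars of the model held more Pfkm than the control bar.

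The other enzymes of glycolysis went both ways. Every list count in this and later paragraphs is to be read beside the shares of all measured genes given above. In NEC over control these were 24.2% higher and 22.9% lower. They were 25.0% and 25.6% in PCI34051+NEC over NEC, and 6.55% each way in PCI34051+NEC over control. Of 20 measured in NEC against control, 6 lay above and 6 below the 2-fold limits, and the median log2 fold was -0.29, beside -0.03 over all genes. Among the lower were Tpi1, the triose phosphate isomerase (75.7 CPM in NEC and 318 CPM in control), Pgk1, Pgam1, Pklr and Bpgm. Among the higher were Eno3, the muscle enolase (141 CPM in NEC and 10.8 CPM in control), the neuronal enolase Eno2 (27.0 and 5.35 CPM), Gpi1 (373 and 129 CPM), Ldhb and Gapdh. Gapdh, at 33.3 and 5.16 CPM, has 77 annotated pseudogenes covering, with 4 other genes, 88.0% of its transcript, so its level and its fold are uncertain. The same holds for Ldhb, Pgk1, Gpi1 and Pgam1, with 76.8%, 68.8%, 55.3% and 43.1% of the transcript repeated in other annotated genes. Set against control, the PCI34051+NEC library had 2 of 19 at least 2-fold higher, Hkdc1 and Aldoc, and 0 lower. Total counts, a pseudocount of 4 CPM, thinning or the whole interval left 1 higher.

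Other enzymes and carriers of gluconeogenesis had a median log2 fold of -0.71 in NEC over control. Of 13 measured, 2 were at least 2-fold lower in NEC than in control, the malate dehydrogenase Mdh1 (112 and 394 CPM) and the oxoglutarate carrier Slc25a11 (28.9 and 102 CPM), and Pck2 was higher. With scaling by total counts, or with the dependence on GC content and length removed, 5 were lower. Pyruvate carboxylase (Pcx), which makes the oxaloacetate that Pck1 uses, was at 9.59 CPM in the PCI34051+NEC, 8.77 CPM in the NEC and 11.5 CPM in the control library, within 2-fold throughout. With the inhibitor, 7 of 13 were at least 2-fold higher and 2 lower than in NEC, and 0 were 2-fold apart from control.

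Several regulators were highest in the inhibitor-fed library, Pdk4, Pfkfb3 and Pfkfb4 among them. Pdk4, the kinase that turns off pyruvate dehydrogenase, was at 276 CPM in the PCI34051+NEC, 78.2 CPM in the NEC and 15.3 CPM in the control library. Pfkfb3, which makes the fructose-2,6-bisphosphate that activates phosphofructokinase, was at 184, 43.8 and 47.1 CPM in PCI34051+NEC, NEC and control, and Pfkfb4, of the same enzyme family, at 222, 99.5 and 80.2 CPM. These 3 were the genes at least 2-fold higher than control in PCI34051+NEC among 17 measured regulators, and 0 were lower. Like Ldha, Pdk3 and the pyruvate dehydrogenase phosphatase Pdp2 were lowest in NEC. Pdk3 was at 26.5 CPM in PCI34051+NEC, 3.65 CPM in NEC and 42.3 CPM in control.

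Transcription factors known to act on gluconeogenic genes were also counted. Hnf4a, a nuclear receptor of liver and gut epithelium, was at 347 CPM in the PCI34051+NEC, 196 CPM in the NEC and 517 CPM in the control library. Ppargc1a, a coactivator of gluconeogenic genes in liver, was at 60.8, 25.3 and 15.4 CPM in PCI34051+NEC, NEC and control, and Ppara, a fasting-response receptor, at 46.3, 11.1 and 5.73 CPM. Of 17 measured, PCI34051+NEC had 6 at least 2-fold above control and 0 below, and their median log2 fold was 0.44. In NEC against control 2 were higher, Klf15 (32.0 and 2.01 CPM) and Nr4a1 (31.0 and 4.47 CPM), and 3 lower. Of 7 glycolytic factors, Hif1a, the oxygen-sensing subunit, was at 43.6 CPM in the PCI34051+NEC, 19.6 CPM in the NEC and 31.4 CPM in the control library.

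Transporters and side pathways of sugar metabolism differed in both directions. Slc2a2, the basolateral glucose transporter of enterocytes, was at 54.9 CPM in the PCI34051+NEC, 7.03 CPM in the NEC and 53.5 CPM in the control library. Slc16a1, a lactate transporter, was at 73.2, 15.7 and 69.2 CPM in PCI34051+NEC, NEC and control, and Slc2a4, the insulin-responsive transporter of muscle, at 11.8, 107 and 11.1 CPM. Of 9 fructose and galactose enzymes, 5 were at least 2-fold lower in NEC than in control, such as galactokinase Galk1 (96.6 and 502 CPM), and 1 was higher, a call lost with total counts or a pseudocount of 4 CPM. All 6 measured glycerol and triose shuttle genes were at least 2-fold higher in PCI34051+NEC than in NEC, among them glycerol kinase Gk, at 205 CPM in PCI34051+NEC and 68.6 CPM in NEC. Over all 120 measured genes of these lists, 22 were at least 2-fold higher and 35 lower in NEC than in control. Of all measured genes, 24.2% were higher and 22.9% lower there. With PCI34051, 60 of 120 were higher and 20 lower than in NEC, beside 25.0% and 25.6% of all measured genes. Against control, 20 of 119 were higher and 1 lower, beside 6.55% of all measured genes each way. The gene lower than control was Glyctk, glycerate kinase, at 11.7 CPM in PCI34051+NEC and 44.0 CPM in control. Of its transcript, 52.2% was repeated in another annotated gene, so its level and its fold are uncertain.

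**Figure D4:**
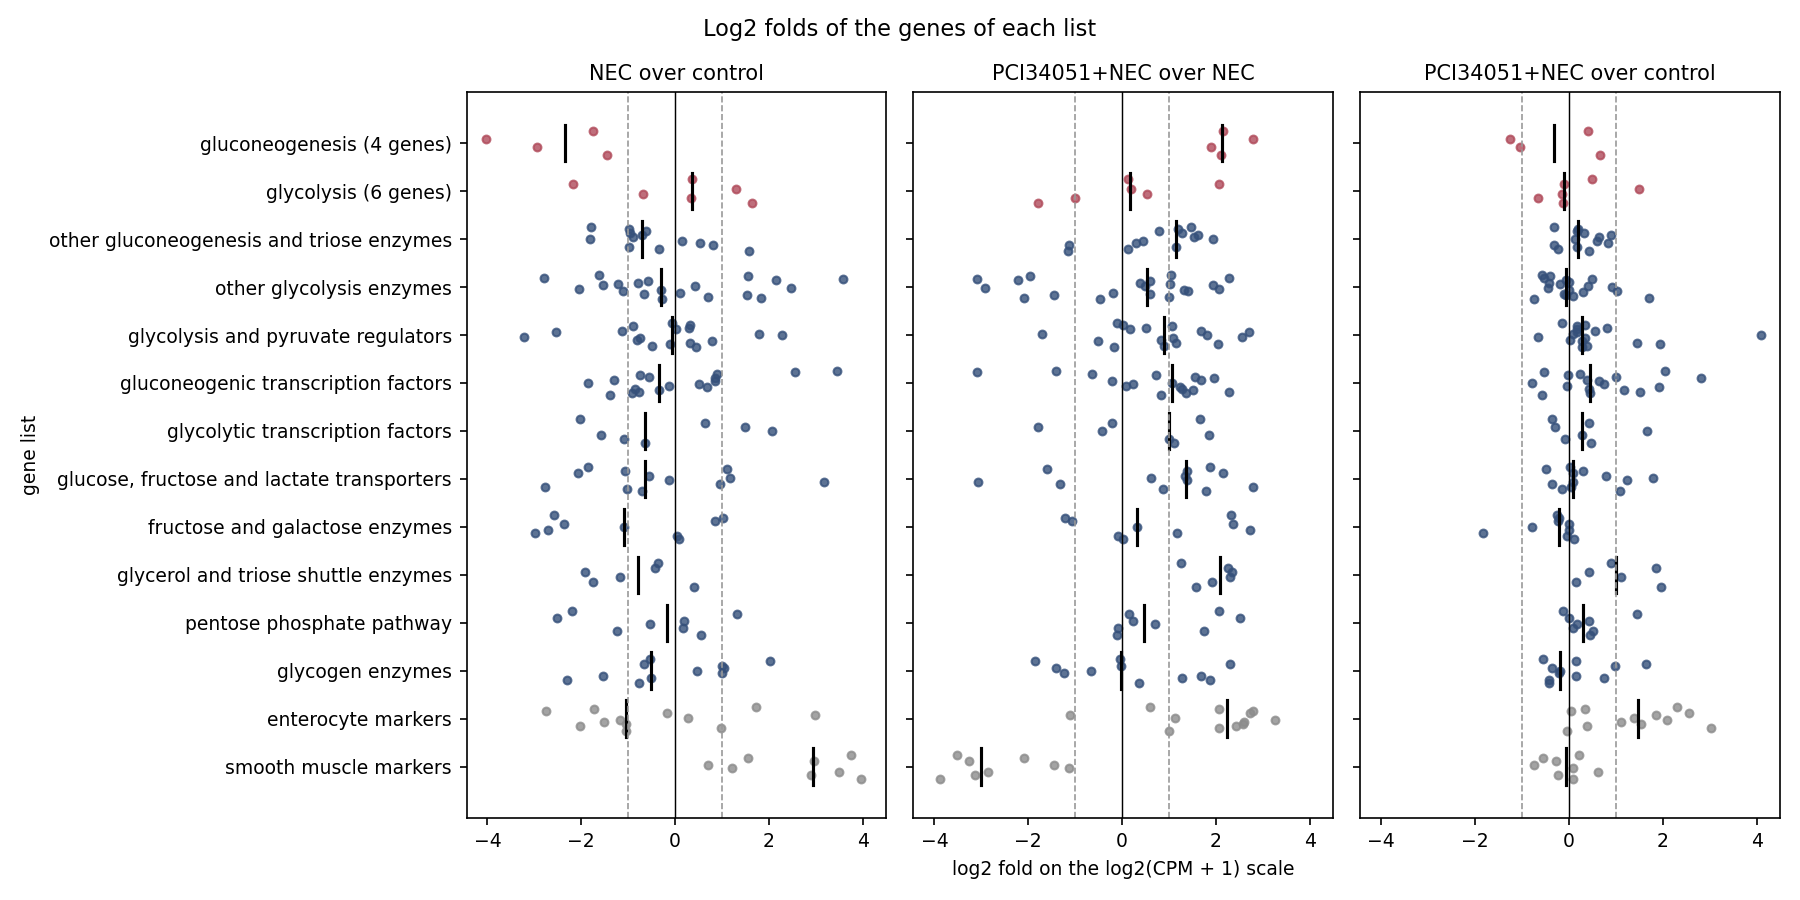
Log2 fold on the log2(CPM + 1) scale of each measured gene (points) in each list, with the list's median as a black bar and dashed lines at 2-fold, for the 3 comparisons. The 4 gluconeogenesis genes lay at or below -1.45 in NEC over control, and smooth muscle markers lay mostly above 1 there.

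Marker lists of the cell types that the tissue could hold differed between the same libraries. In bulk tissue, fewer cells of a type and less RNA per cell cannot be told apart. The 12 enterocyte markers summed to 81482 CPM in the PCI34051+NEC, 14350 CPM in the NEC and 32051 CPM in the control library, none at 0. Most of each sum was Apoa4, at 58772, 9794 and 20142 CPM in PCI34051+NEC, NEC and control. In NEC, 7 of the 12 lay at least 2-fold below control and 2 above, and their median log2 fold was -1.04, beside -2.35 for the gluconeogenesis genes. The general epithelial markers Epcam, Cdh1 and Vil1 had log2 folds of -2.75, -1.73 and -1.04. The 2 markers above were Sis and Krt20, at 2.98 and 1.72. The enterocyte markers' part in the lower gluconeogenesis and Ldha levels was not tested. Relative to control, 8 of the 12 were at least 2-fold higher and 0 lower in PCI34051+NEC. The general epithelial markers Epcam, Vil1 and Cdh1 were not among the 8, at 1.02-fold, 0.968-fold and 1.27-fold the control level.

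The 8 smooth muscle markers summed to 1520 CPM in the PCI34051+NEC, 12041 CPM in the NEC and 1581 CPM in the control library, and 7 of 8 were at least 2-fold higher in NEC than in control. The 8 neuron and glia markers, of which only Gfap was at 0, and only in NEC, summed to 65.7, 395 and 70.6 CPM in PCI34051+NEC, NEC and control, and 6 of 7 measured, Eno2 among them, were at least 2-fold higher in NEC than in control. Hk1 moved with both lists. Their part in the levels of Hk1 and Pfkm was not tested. Striated muscle markers summed to at most 16.7 CPM, with Myh1 at 0 in every library. Of 4 measured in NEC against control, 1 was at least 2-fold higher and 0 lower. The higher one was Tnnt3, with 14 (PCI34051+NEC), 85 (NEC) and 6 (control) counts, and its bearing on Pfkm was not tested. Liver markers summed to 998 CPM in the PCI34051+NEC, 344 CPM in the NEC and 1141 CPM in the control library. Most of that sum was Cps1, which gut epithelium also expresses, and Ttr, and 6 of the 10 were at least 2-fold higher and 3 lower in NEC than in control. The 3 lower were Cps1, Ttr and Fga, and Alb was among the higher, at 0.394, 100.4 and 9.31 CPM in PCI34051+NEC, NEC and control. The part of liver RNA in the gluconeogenesis levels was not tested. Of the 5 kidney markers 3 were measured in NEC against control, where 2 were at least 2-fold higher and 1, Lrp2, lower. Slc34a1 had 0 (PCI34051+NEC), 14 (NEC) and 1 (control) counts and Slc5a2 had 2 (PCI34051+NEC), 17 (NEC) and 0 (control), while Slc22a6 and Umod had at most 4 in any library. Lrp2, also made in neonatal gut, made up most of the list's sum of 13.9 (PCI34051+NEC), 7.03 (NEC) and 44.2 (control) CPM. The pancreas markers Prss2, Amy2a5 and Pnlip were at 0 in all 3, whereas Cela1 was at 2.43 CPM in PCI34051+NEC, 1.83 CPM in NEC and 8.12 CPM in control. The part of kidney and pancreas RNA was not tested either.

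By likeness of pattern, the distance between the 3 centred log2(CPM + 1) values was taken over 3 libraries for the 5164 genes at 50 CPM or more in their highest library. Nearest to Fbp1 were Gpr151 (distance 0.107), Dio1 (0.137) and Hao2 (0.175), and 24 genes lay within 0.5. Nearest to G6pc were Lxn, Slc23a1 and Wdr61, with 117 genes within 0.5. Pck1 had 756 genes within 0.5, with Lpgat1, Acot1 and Ppp1r15b nearest, Ldha had 562, with Lrrn1, Gdap2 and Taldo1 nearest, and Pkm had 766, with Letm1, Ralgapb and Kif1b nearest.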

How the data were processed

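RNA from mouse intestine was sequenced in 3 libraries, 1 per group. The values deposited by the authors are raw gene counts, listed by symbol. The submitters' processing notes name build mm10. Aligner, annotation, strand setting and filters: not given in the sources used here. Names tie the control and NEC columns to their samples. The name of the third column shares the inhibitor prefix and NEC number of the PCI34051+NEC description, and of no other, but differs in letters, which limits all PCI34051+NEC values.

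Scaling used TMM (edgeR 4.0.16, R 4.3.3), whose factors were 0.923 (PCI34051+NEC), 1.03 (NEC) and 1.05 (control). A pseudocount of 1 CPM, a minimum of 1 CPM and a 2-fold threshold were used. A ratio is 1 CPM value over another, its interval the exact conditional binomial one (Clopper-Pearson), as for shares. Without molecular identifiers, PCR copies are not separate molecules. A count of 3, taken as the floor for a count of 0, corresponds to 0.197, 0.274 and 0.189 CPM in PCI34051+NEC, NEC and control. Gene coordinates, transcript lengths and GC content came from GENCODE M21, which held 21926 of the 21983 symbols. Copies were sought with BLAST 2.17.0 at 95% identity over 100 bases or more among its transcripts. The procedure was tested on simulated counts. Other software was Python 3.11.15 with scipy 1.17.1, pandas 2.3.3, matplotlib 3.10.9 and numpy 2.4.6.

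The 10 genes, the lists and the tests were chosen with earlier results of these data known. The rule for named genes took the 10 genes, their isozymes, up to 4 genes per list that differed most in any 1 comparison and reached 5 CPM, and the 3 genes nearest in pattern to Pck1, G6pc, Fbp1, Ldha and Pkm. Markers were named where one of the 10 genes moved with them. Pcx, Tpi1, Gpi1, Pgk1 and Pgam1 fall outside the rule and were named after their values were seen, and the promoter motifs were chosen then too. The alternatives comprised total counts, size factors of DESeq2 1.42.0, TMM that leaves out mitochondrially encoded genes and the top 50 by abundance, TMM over the libraries compared alone, pseudocounts of 0.25 and 4 CPM, no minimum and a minimum of 5 CPM, thinning to the smallest library, a 1.5-fold threshold, whole intervals beyond 2-fold, and, added after the data were seen, centring of log2 folds within 30 bins of GC content and then of transcript length.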

Additional observations from a re-analysis of the deposited data

How the results depend on the processing

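No log2 fold at or beyond 2-fold among the 10 genes changed sign under the alternatives run. Counts at least 2-fold apart, over the 10 genes and over all other pathway genes together, stayed within 1.5 times except as follows, and the cause was not tested beyond each alternative's own construction. In PCI34051+NEC against NEC, 1 of the 10 genes instead of 2 was lower with TMM without the 50 most abundant and mitochondrially encoded genes, a pseudocount of 4 CPM, whole counting intervals beyond 2-fold, or the GC content and length trend removed, since Hk2 dropped out. In PCI34051+NEC against control, the whole counting interval left 1 lower gene, Fbp1, instead of 2, and the 1.5-fold threshold gave 2 higher genes instead of 1. Of the other pathway genes, the 1.5-fold threshold gave 54 lower in NEC than in control instead of 35, and in PCI34051+NEC against control 32 higher instead of 20 and 5 lower instead of 1, where a pseudocount of 0.25 CPM gave 2. With dependence on GC content and length taken out, 6 of the 10 genes instead of 5 were lower in NEC than in control. Median log2 folds of NEC over control ran from -0.32 in the fifth of genes lowest in GC content to 0.52 in the highest. Among differences under 2-fold, the sign of Hk1 in PCI34051+NEC over control turned with counts thinned to the smallest library (0.07). Low counts limit Hk2 most. No paired analysis was possible because each group has 1 library.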

Other observations

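Hkdc1, Pfkm, Tkt and Gk were highest in the PCI34051+NEC, next in the NEC and lowest in the control library, whereas the 4 gluconeogenesis genes were lowest in NEC. Tkt, the transketolase of the pentose phosphate pathway, was at 404 CPM in the PCI34051+NEC, 366 CPM in the NEC and 147 CPM in the control library. Transaldolase, Taldo1, of the same pathway was lowest in NEC, at 709, 168 and 769.5 CPM in PCI34051+NEC, NEC and control. Among glycogen enzymes, glycogenin Gyg was at 52.0, 13.4 and 70.2 CPM in PCI34051+NEC, NEC and control. Red cells carry Hk1 and Pklr, and the 7 erythroid markers summed to 247 CPM in the PCI34051+NEC, 183 CPM in the NEC and 116 CPM in the control library. Most of that sum was Hba-a1 and Hbb-bs, and single markers differed in order, with Hba-a2 at 3.35, 9.13 and 4.09 CPM and Hbb-bt at 4.34, 2.92 and 4.53 CPM in PCI34051+NEC, NEC and control. The markers' part in the Hk1 and Pklr levels was not tested.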
